A study of Rattus norvegicus with 18 samples.

Results

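Genes of endotoxin and Toll-like receptor sensing were followed in scraped colon mucosa from both ends of the colon of 9 rats (male, Sprague Dawley). The genes were chosen by name, as every probe set that the array annotation assigns to exactly 1 symbol among Tlr2, Tlr3, Tlr4, Tlr5, Cd14, Ly96, Lbp, Myd88, Nod2 and Tollip. Of these 10 genes, 7 had a probe set, and the 7 genes had 9 probe sets out of 31042 that are not controls. Tlr3, Tlr5 and Nod2 had no probe set under that rule and were not analysed here. Tollip had 3 probe sets and the others 1 each. All 9 probe sets lay above the filter on low signal, which removed the dimmest 30% of probe sets by their mean signal. That filter stood at a log2 signal of 5.54.

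The 18 Affymetrix arrays comprise 9 of proximal and 9 of distal mucosa, numbered by rat (1 to 8 and 10). Every rat of both groups was fed modified AIN-93G diet over 10 days, had been injected under the skin with azoxymethane (15 mg per kg), a colon carcinogen that alkylates DNA, and was killed 6 h later. The rats weighed about 245 g, and a 4 cm stretch of each region was scraped. No untreated rats were among the samples, so the comparison is of distal with proximal colon after azoxymethane, and the spread between arrays is that between rats.

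Bacterial lipopolysaccharide, the endotoxin of gram-negative bacteria, is passed by the soluble binding protein Lbp to Cd14, which hands it to the receptor pair of Ly96 and Tlr4. Tlr2 recognizes bacterial lipoproteins, Myd88 is the adaptor that most Toll-like receptors share, and Tollip is an adaptor protein that dampens their signal. In the gut these proteins face a dense microbiota, and they are made by epithelial cells as well as by macrophages and other immune cells.

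Epithelial markers were bright in every array, though mean signals of different probe sets do not give the shares of cell types. The mean log2 signal of 13 epithelial markers (among them Epcam and Krt8) was 12.61 to 12.91 in the proximal and 12.70 to 12.85 in the distal arrays. A list of 16 macrophage and monocyte markers of 21 listed had means of 7.39 to 8.83 and 7.19 to 8.32. Smooth muscle markers (10 genes) were far higher in the proximal array of rat 3, at 12.09, than in the other proximal arrays (7.00 to 8.72), and among the distal arrays they were highest in rats 3 and 7 (9.88 and 9.78). The proximal arrays of rats 3 and 6 also stood apart in several of the genes below, so results that rest on them are given with and without them. In scraped tissue, fewer cells of a type and less RNA per cell cannot be told apart.

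Of the 7 genes, 3 were higher in distal colon at an adjusted p below 0.05 and 0 in proximal colon (limma with Benjamini-Hochberg adjustment over all probe sets tested), where 0 passed an unadjusted p of 0.05 as well. The 3 were Lbp, Cd14 and Tlr4, while Ly96, Tlr2, Myd88 and Tollip did not pass. Among all 11407 genes tested, 30.8% passed, 16.2% of all as higher in distal and 14.5% as higher in proximal colon. The median difference of the 7 genes was 0.24 on the log2 scale, against 0.01 over all genes. With the deposited scaling of the arrays kept in place of quantile normalization, Lbp alone of the 7 passed.

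**Figure D1:**
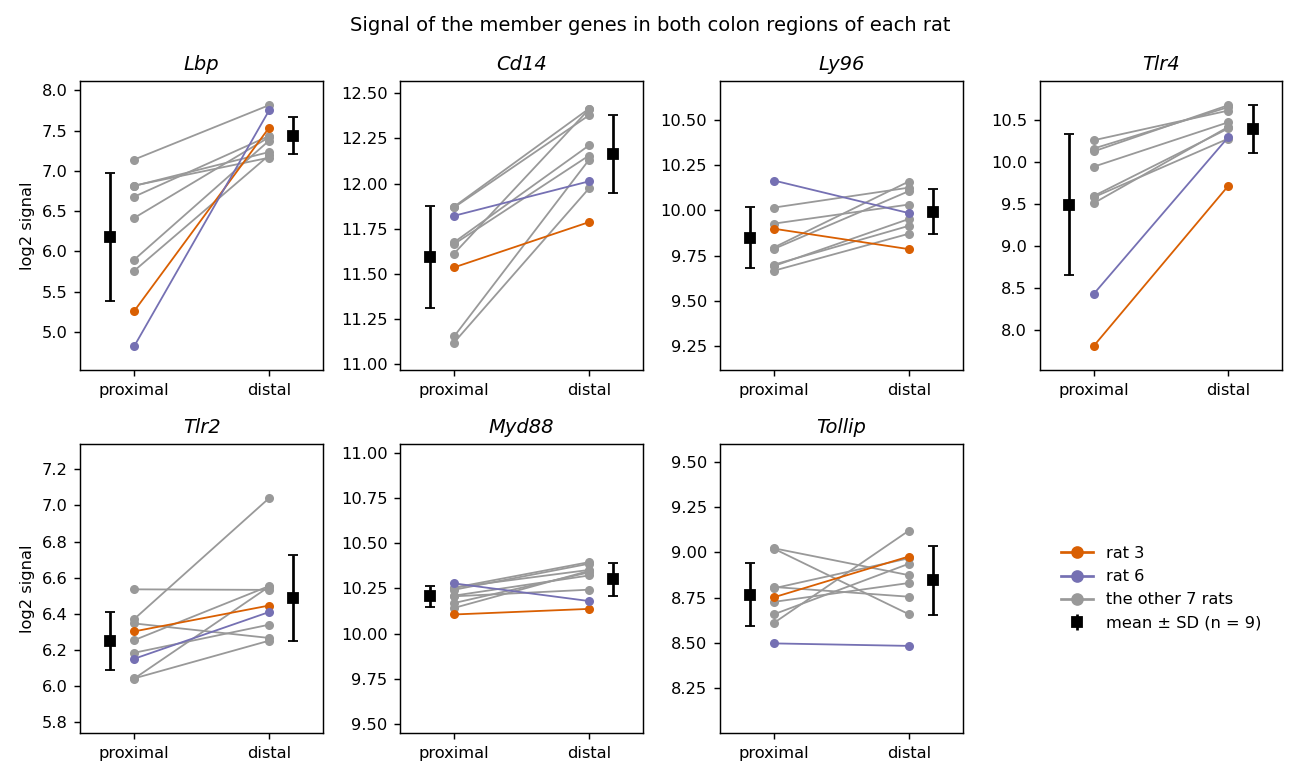
Log2 signal (y axes, each panel spanning its own range) of the 7 genes in the proximal and distal colon of 9 rats, for the probe set with the highest mean of each gene; lines join the arrays of a rat, and squares with bars are the mean ± SD (n = 9). Lbp, Cd14 and Tlr4 were higher in distal colon in 9 of 9 rats, and rats 3 (orange) and 6 (purple) had the lowest proximal Lbp and Tlr4.

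Lbp (probe set 1387868_at) encodes the secreted protein that extracts endotoxin from bacterial membranes and speeds its transfer to Cd14. Its log2 signal was 4.83 to 7.14 in the proximal arrays (median 6.42) and 7.16 to 7.82 in the distal arrays (median 7.42). The lowest distal array thus lay just above the highest proximal array, that of rat 4, and the groups did not overlap, as was the case for 6.89% of all genes. The means were 6.18 ± 0.79 and 7.44 ± 0.23 (SD, n = 9 each), a difference of 1.26 ± 0.25 (SE), or 2.39-fold (limma adjusted p = 0.000969, higher in distal colon in 9 of 9 rats). The proximal signals of rats 3 and 6, at 5.26 and 4.83, were below the filter level, and those of the other rats were 5.76 to 7.14. Without these arrays the difference was 0.93 (limma adjusted p = 0.000734). On the deposited scaling it was 1.14 (limma adjusted p = 0.00154), and Lbp was higher in distal colon in 8 of 9 rats, the exception being rat 10. The groups overlapped on that scaling, with the proximal array of rat 4 at 7.24 and the distal arrays of rats 7 and 10 at 7.22 and 6.80.

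Cd14 (1368490_at) is the surface and soluble protein that presents endotoxin to the receptor. Its log2 signal was 11.12 to 11.87 in proximal colon (median 11.66) and 11.79 to 12.41 in distal colon (median 12.15). Only the distal array of rat 3 (11.79) lay within the proximal range. The means were 11.59 ± 0.28 and 12.16 ± 0.22 (SD, n = 9 each), a difference of 0.57 ± 0.11 (SE), or 1.49-fold (limma adjusted p = 0.000605, 9 of 9 rats). The within-rat difference ran from 0.19 in rat 6 to 0.98 in rat 10. Unlike Lbp and Tlr4, the proximal Cd14 signals of rats 3 and 6 (11.54 and 11.82) were not low, and without them the difference was 0.60 (limma adjusted p = 0.00107). Under the deposited scaling the difference was 0.43 (limma adjusted p = 0.105, 7 of 9 rats).

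Tlr4 (1387982_at), the signalling receptor for endotoxin, had log2 signals of 7.81 to 10.26 in proximal colon (median 9.59) and 9.72 to 10.67 in distal colon (median 10.42). Rats 3 and 6 had proximal signals of 7.81 and 8.43, below the range of 9.51 to 10.26 of the other 7 rats, and rat 3 also had the lowest distal signal. The ranges of the regions overlapped, but each rat had more Tlr4 signal in its distal than in its proximal array. The means were 9.49 ± 0.84 and 10.39 ± 0.29 (SD, n = 9 each), a difference of 0.90 ± 0.27 (SE), or 1.87-fold (limma adjusted p = 0.0166). The within-rat differences of rats 3 and 6 were 1.90 and 1.86, against 0.35 to 0.91 in the other rats. Without these proximal arrays the difference fell to 0.51 and still passed (limma adjusted p = 0.0106), and with the deposited scaling it was 0.78 and did not pass (limma adjusted p = 0.0540, 9 of 9 rats).

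Markers of other cells moved with these values in rat 3. Its proximal array had the highest smooth muscle mean (12.09), the lowest epithelial mean (12.61) and the highest macrophage mean (8.83), and its fibroblast mean was 10.82 against at most 8.63 in the other proximal arrays. The proximal array of rat 6 had a smooth muscle mean of 7.52, within the range of the others. Its epithelial mean of 12.79 lay below the 12.81 to 12.91 of the 7 rats other than 3 and 6, and its macrophage mean of 8.42 just above their 7.39 to 8.28. Its goblet cell mean was the lowest of the proximal arrays (11.99), and its T and NK cell mean the highest (7.92). The part of these cells in the low Tlr4 and Lbp was not tested. Without the 3 arrays of highest smooth muscle mean, the difference was 0.75 for Tlr4 (limma adjusted p = 0.0115), 1.16 for Lbp (0.00410) and 0.59 for Cd14 (0.00120). The macrophage and dendritic lists had median differences of -0.30 and -0.07, the dendritic one over only 3 genes tested of 8 listed, of which 0 passed. Of 16 macrophage markers, 1 passed in each direction (Ctss in distal and Clec4a1 in proximal colon). The Ctss call was lost on the deposited scaling (limma adjusted p = 0.969), after median centring (0.322) and without the 3 muscle-rich arrays (0.130). The medians of some other lists moved more, among them fibroblast (-0.68), smooth muscle (-0.40) and neutrophil (0.70). Of 10 fibroblast and 10 smooth muscle markers, 0 passed. The goblet cell and epithelial medians were -0.04 and -0.03, though some of their markers passed. Of 7 enteroendocrine markers 5 were higher in proximal colon (median -1.81), among them Chga (5.12-fold). Of 8 goblet cell markers 3 were higher in proximal colon, among them Spink4 (7.13-fold) and Zg16 (3.65-fold), and Tff3 was higher in distal colon (1.33-fold). Of 13 epithelial markers 3 passed toward proximal and 1 toward distal colon. The 6 B and plasma cell markers had a median of 0.65, while the 1 that passed, Jchain, was higher in proximal colon. The part of these cells in the results was not tested. Of the neutrophil list, S100a8 (2.06-fold, limma adjusted p = 0.000499) and S100a9 (2.16-fold, limma adjusted p = 0.00406) were higher in distal colon, and Fcgr2b and Itgb2 did not pass. S100a8 was dim, at a mean log2 signal of 5.43 in proximal colon, below the filter level, and 6.47 in distal colon. Of the 12 genes of the neutrophil list 8 were on the array, and 4 of them were too dim for the filter. The mean over the other 4 was 6.14 to 7.42 in proximal and 6.59 to 7.86 in distal arrays, and its part in the result was not tested.

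Ly96 (1382277_at) encodes the secreted subunit that sits on Tlr4 and holds the lipid part of endotoxin. Its log2 signal was 9.67 to 10.17 in proximal colon (median 9.79) and 9.79 to 10.16 in distal colon (median 9.99), so the ranges overlapped almost entirely. The difference was 0.14 ± 0.07 (SE, n = 9 each), with a 95% interval of -0.01 to 0.29 (limma adjusted p = 0.148, higher in distal colon in 7 of 9 rats). The exceptions were rats 3 and 6. Without their proximal arrays the difference was 0.20 and passed (limma adjusted p = 0.0387). Those arrays were singled out by values of the genes followed here, and both rats went against the Ly96 difference. Leaving them out favours a pass, so that call is no added support. On the deposited scaling the difference was 0.05 (limma adjusted p = 0.864).

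For bright genes, a ratio within 1 array hardly depends on how arrays are scaled (only through the 16 added to each signal). The 3 genes that passed were therefore also set against their partners Ly96 and Myd88 in the deposited values. This comparison was added after the values were seen and has no test. Lbp was dim, with a deposited proximal signal of 30.1 in rat 3 and less in rat 6. There the added 16 is a large part of the value, so the Lbp ratios still depend in part on the scaling. The log2 ratio of Tlr4 to Ly96 was higher in distal colon by 0.73 ± 0.71 (SD, n = 9 rats), in 9 of 9 rats, and by 0.39 without rats 3 and 6. The ratio of Cd14 to Ly96 was higher by 0.38 ± 0.25, in 8 of 9 rats, and without rats 3 and 6 also by 0.38. That of Lbp to Ly96 was higher by 1.09 ± 0.96, in 9 of 9 rats, and by 0.64 without rats 3 and 6. Against Myd88 the ratios of Cd14, Tlr4 and Lbp were higher in distal colon by 0.43 ± 0.24, 0.78 ± 0.60 and 1.14 ± 0.88, each in 9 of 9 rats. Without rats 3 and 6 these were 0.48, 0.49 and 0.74. The ratios show unequal change of the genes in each pair, and do not show that Ly96 or Myd88 stayed the same.

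**Figure D2:**
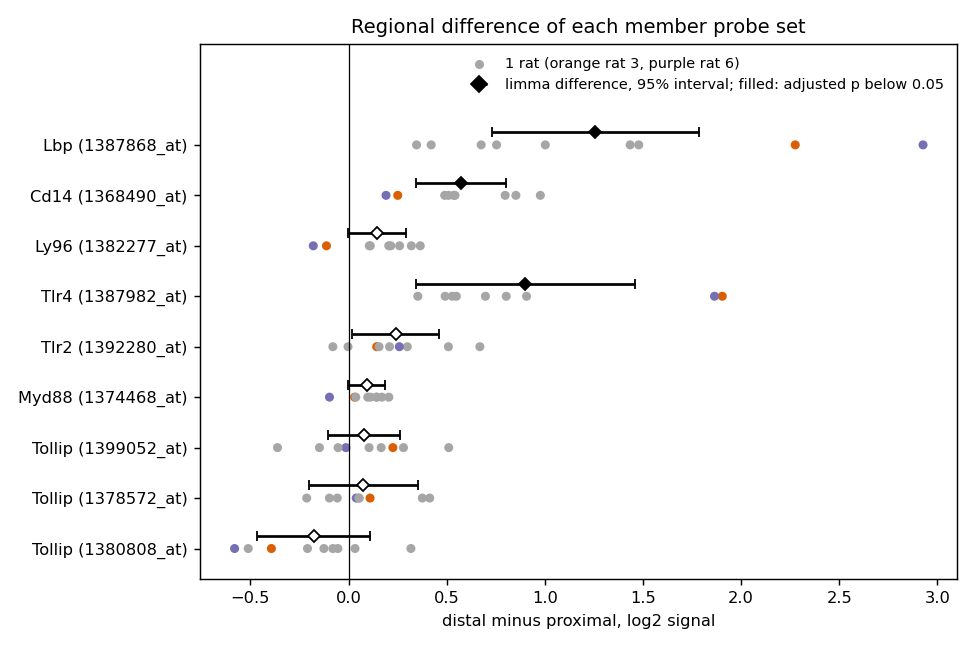
Distal minus proximal log2 signal (x axis) of the 9 probe sets (y axis), with a point for each of 9 rats and a diamond with its bar for the limma difference and 95% interval, filled where the adjusted p was below 0.05. The points of rats 3 and 6 lie far to the right for Tlr4 (1.90 and 1.86) and Lbp (2.28 and 2.93), and to the left for Cd14 (0.25 and 0.19) and Ly96 (-0.11 and -0.18).

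Tlr2 (1392280_at), the receptor for bacterial lipoproteins, was dim on these arrays. Its log2 signal was 6.04 to 6.54 in proximal colon (median 6.26) and 6.25 to 7.04 in distal colon (median 6.45), close to the filter level of 5.54. The highest value was the distal array of rat 10, and the next highest distal array was at 6.55. The difference was 0.24 ± 0.11 (SE, n = 9 each), with a 95% interval of 0.02 to 0.46 before adjustment over probe sets (limma adjusted p = 0.105, higher in distal colon in 7 of 9 rats). Under the deposited scaling it was 0.09 (limma adjusted p = 0.698). The fold of a dim probe set is understated by the pseudocount of 16 that was added to each signal.

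Myd88 (1374468_at), through which Tlr2 and Tlr4 both signal, had the smallest SD of the 7 genes in both regions (0.06 and 0.09). Its log2 signal was 10.11 to 10.28 in proximal colon (median 10.21) and 10.14 to 10.39 in distal colon (median 10.34). The difference was 0.09 ± 0.05 (SE, n = 9 each), with a 95% interval of -0.0015 to 0.19 (limma adjusted p = 0.140, 8 of 9 rats). On the deposited scaling it was below 0.01 (limma adjusted p = 0.998, 4 of 9 rats).

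The 3 probe sets of Tollip gave small differences of both signs. The brightest (1399052_at) had log2 signals of 8.50 to 9.02 in proximal and 8.48 to 9.12 in distal colon, and a difference of 0.08 ± 0.09 (SE, n = 9 each; 95% interval -0.10 to 0.26; limma adjusted p = 0.552, 5 of 9 rats). The next (1380808_at) was at 7.29 to 8.12 and 6.90 to 7.91, with a difference of -0.18 ± 0.14 (limma adjusted p = 0.373, higher in distal colon in 2 of 9 rats). The dimmest (1378572_at) was at 6.81 to 7.77 and 6.92 to 7.68, with a difference of 0.07 ± 0.13 (limma adjusted p = 0.723, 6 of 9 rats). After region means were subtracted, the 2 dimmer probe sets followed each other over the 18 arrays (r = 0.74), while the brightest did not follow either (r = 0.13 and -0.05), as a description. Under the deposited scaling the differences of 1399052_at and 1378572_at turned sign, to -0.0023 and -0.035. The mean of the 3 probe sets differed by -0.0084 (limma adjusted p = 0.961).

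The promoter windows of Tlr4 and Cd14, which were both higher in distal colon, and of Tlr2, which did not pass, are shown to let their sequences be compared. Each is the 250 bases before the annotated start in RefSeq (build GRCr8), and the table held 7 of the 10 genes of the rule. Lbp, also higher in distal colon, had no window there, nor had Ly96 and Nod2. The search covered both strands for the NF-kappaB consensus, for an AP-1 motif (TGANTCA), for the core bound by PU.1-type ETS factors (GAGGAA) and for a CDX motif (TTTATNG). Capitals mark every match. Tlr4 lies at chr5:85160997-85161246 on the plus strand, Cd14 at chr18:28611159-28611408 on the minus strand and Tlr2 at chr2:171504558-171504807 on the minus strand.
Tlr4: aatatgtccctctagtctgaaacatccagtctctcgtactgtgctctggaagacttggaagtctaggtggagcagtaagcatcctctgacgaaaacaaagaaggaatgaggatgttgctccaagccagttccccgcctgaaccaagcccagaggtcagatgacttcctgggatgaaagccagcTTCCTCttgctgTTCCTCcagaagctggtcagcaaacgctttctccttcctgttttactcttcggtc
Cd14: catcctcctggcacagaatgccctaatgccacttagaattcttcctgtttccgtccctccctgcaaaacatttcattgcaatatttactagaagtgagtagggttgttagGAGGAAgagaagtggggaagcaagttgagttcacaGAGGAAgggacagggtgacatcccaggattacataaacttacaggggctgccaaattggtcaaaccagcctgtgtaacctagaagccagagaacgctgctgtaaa
Tlr2: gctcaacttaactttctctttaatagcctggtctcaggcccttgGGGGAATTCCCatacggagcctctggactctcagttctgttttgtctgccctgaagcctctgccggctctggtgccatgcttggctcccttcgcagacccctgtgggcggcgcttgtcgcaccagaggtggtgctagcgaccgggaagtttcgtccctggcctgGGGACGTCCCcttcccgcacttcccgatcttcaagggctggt
The Tlr4 window held GAGGAA on the opposite strand, as TTCCTC, at 67 to 62 and at 55 to 50 bases before the start. The Cd14 window held it at 140 to 135 and at 105 to 100 bases. This core occurs in 23.3% of 33469 rat promoter windows of the same length. The Tlr2 window held 3 matches to the NF-kappaB consensus, of which a pair overlaps at 206 to 196 bases and the other lies at 42 to 33 bases before the start, and that consensus occurs in 6.33% of the windows. AP-1 (6.34% of windows) and CDX (10.1%) had no match in these 3 windows. Among the windows not shown, Tlr3 held GAGGAA as TTCCTC at 7 to 2 bases before the start. Myd88 held an AP-1 match at 208 to 202 bases, and Tlr5 and Tollip held no match. Matches are descriptions of letters in a window and say nothing of binding.

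Rats with a low proximal Tlr4 signal tended to have a low distal one. Over 9 rats, proximal and distal Tlr4 signals had a Pearson r of 0.91 (exact permutation of pairings, two-sided, p = 0.000391, adjusted p = 0.00274 over 7 relations) and a Spearman rho of 0.85 (exact permutation p = 0.00607, adjusted p = 0.0425). Without rats 3 and 6, whose proximal signals lay farthest from the median, r was 0.89 over 7 rats (exact permutation p = 0.0192, adjusted p = 0.135). On the deposited scaling r was 0.83 (exact permutation adjusted p = 0.0747). Thus the size of r changed little, but the call did not hold. For the other 6 genes r ran from -0.23 for Lbp to 0.47 for Cd14, with exact permutation adjusted p from 0.663 to 0.972.

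**Figure D3:**
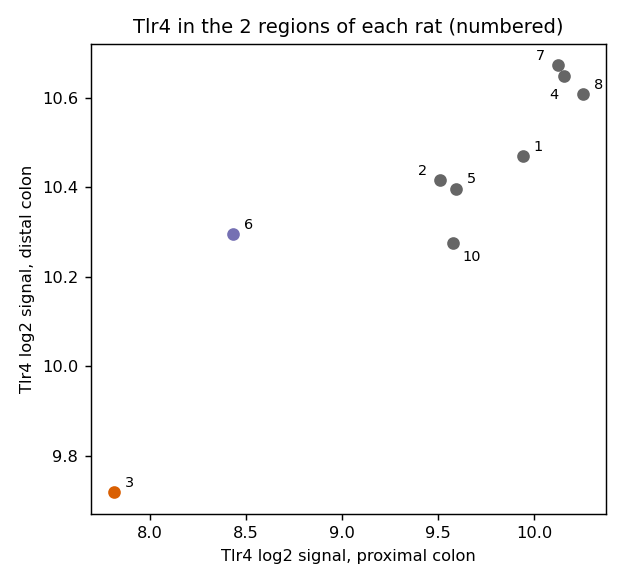
Tlr4 log2 signal of each rat in proximal (x axis) and distal colon (y axis), with points numbered by rat. Rat 3 is lowest in both regions (7.81 and 9.72) and rats 4, 7 and 8 are highest in both (10.12 to 10.26 and 10.61 to 10.67).

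The members did not vary as a block from array to array. After each region's mean was subtracted, Tlr4 and Lbp had r = 0.69 over 18 arrays but r = 0.10 over 16 without the proximal arrays of rats 3 and 6. Cd14 and Ly96 had r = 0.71, and r = 0.74 without these arrays. Tlr4 and Cd14 had r = 0.16, and 0.57 without them. These values share arrays and rats and are descriptions. By the same measure, the genes most like Tlr4 were Opn3 (r = 0.94), Nans (0.94) and Smpdl3b (0.93), and those most like Lbp were Pcsk7 (0.92), St6galnac6 (0.91) and C2h3orf80 (0.90). For these 6 genes r was 0.73 to 0.78 without the 2 arrays. Those most like Cd14 were Smu1 (0.85), Kpnb1 (0.84) and Vcp (0.82), and those most like Ly96 were Zfp326 (0.84), Pcif1 (0.82) and Exph5 (0.81). Borcs7, Arnt and Cstb were most like Myd88 (0.83 to 0.84), Kcnc4, Fkbp5 and Ccn1 most like Tlr2 (0.75 to 0.79), and Diablo, Orai3 and Rapgef3 most like Tollip (0.73 to 0.78). All of these were picked as the highest r among the named genes of the 11407 tested. Picking from so many raises r by itself, and no r here was tested.

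Other receptors and accessory proteins were examined from lists. Of 9 other Toll-like receptors, 3 were on the array and tested, and 0 passed in either direction with limma, with 0 at an unadjusted p below 0.05 as well. Tlr1 differed by -0.32 (limma adjusted p = 0.297), Tlr7 by 0.38 (0.303) and Tlr8 by -0.17 (0.654), all of them dim, at mean log2 signals of 5.37 to 6.98. Of 10 genes of endotoxin handling and receptor folding that were tested (12 on the array), 2 had more signal in distal and 1 in proximal colon, a share near that of all genes. Hsp90b1, the chaperone that folds Toll-like receptors, was 1.22-fold higher in distal colon (limma adjusted p = 0.00854). Unc93b1, which escorts the nucleic-acid sensing receptors, was 1.31-fold higher there (limma adjusted p = 0.0276) but not without rat 2, 4, 5 or 8 (up to 0.0831). Neither passed with the deposited scaling (adjusted p = 0.262 and 0.138). Alpi, the intestinal alkaline phosphatase that removes phosphates from endotoxin, was 1.55-fold higher in proximal colon (limma adjusted p = 0.0403, 9 of 9 rats). Its call was lost without rat 1, 4, 5, 6, 7, 8 or 10 (adjusted p up to 0.109).

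Of 24 adaptors and kinases tested, 4 had more signal in distal and 2 in proximal colon (median 0.04), and 18 did not pass. The share that passed is no larger than the 30.8% of all genes. Irak1bp1, which binds the kinase Irak1, was 1.66-fold higher in distal colon (limma adjusted p = 0.000417). Tab3 (1.27-fold), Traf6 (1.24-fold) and Irak1 (1.24-fold), which relay the signal from Myd88, were higher there with limma adjusted p of 0.00653, 0.00251 and 0.00103. The deposited scaling ended these 3 calls (adjusted p = 0.201, 0.275 and 0.277), and with the mean of their probe sets neither Traf6 (0.952) nor Irak1 (0.154) passed. Pik3ap1, an adaptor to phosphoinositide kinase, was 1.52-fold higher in proximal colon (limma adjusted p = 0.00695). Peli1, a ubiquitin ligase, was 1.19-fold higher there (limma adjusted p = 0.0415) but not without rat 2, 4, 6 or 7 (up to 0.107), on the deposited scaling (0.0880), after median centring (0.205) or without the 3 muscle-rich arrays (0.0735).

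Of 13 transcription factors and inhibitors of the NF-kappaB and interferon regulatory families, 3 had more signal in distal and 1 in proximal colon (median 0.08), a share near the 30.8% of all genes. Nfkbiz, a nuclear cofactor induced by Toll-like receptors, was 1.75-fold higher in distal colon (limma adjusted p = 3.68e-05, 9 of 9 rats). Nfkb2 was 1.43-fold higher there (limma adjusted p = 0.000173, 9 of 9 rats), and both passed with the deposited scaling (adjusted p = 0.00779 and 0.0270). Irf3, the factor of the interferon branch behind Tlr4, was 1.17-fold higher (limma adjusted p = 0.00479), and not with the deposited scaling (0.419). Irf1 was 1.34-fold higher in proximal colon (limma adjusted p = 0.0187), except without rat 6 (0.0578) and with arrays centred on their medians (0.0524). Rela, Nfkbia and Nfkb1 did not pass (differences of 0.08, 0.18 and -0.23). Nfkbia passed as higher in distal colon with rat as a block (limma adjusted p = 0.0425) and without the proximal arrays of rats 3 and 6 (0.0431). Nfkb1 passed as higher in proximal colon with rat as a block (limma adjusted p = 0.0475).

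Among 18 inhibitors of the pathway tested (21 on the array), 4 had more signal in distal and 0 in proximal colon with limma (median 0.05), and 0 were higher in proximal colon at an unadjusted p below 0.05. Among all genes 16.2% passed as higher in distal colon and 30.8% in either direction, so the count is near the background. They were Dok1 (1.39-fold, limma adjusted p = 0.000599), an adaptor that restrains Tlr4 signalling, Rnf216 (1.35-fold, 3.00e-05), a ubiquitin ligase that marks Toll-like receptors for breakdown, Dusp1 (1.30-fold, 0.0450), a phosphatase of stress kinases, and Sqstm1 (1.14-fold, 0.00357), an autophagy receptor. Under the deposited scaling Rnf216 alone passed (adjusted p = 0.0292). Dusp1 was also lost without rat 1, 2, 3, 4, 5, 6 or 8 (up to 0.135), without the proximal arrays of rats 3 and 6 (0.148), without the 3 muscle-rich arrays (0.110), after median centring (0.0806) and with the mean of its probe sets (0.345). Sqstm1 was lost after median centring (0.0903) and with the mean of its probe sets (0.303). Tnfaip3 and Sigirr did not pass (differences of -0.13 and 0.06).

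Of 10 genes of the cytosolic sensors and the inflammasome that were tested (11 on the array), 5 had more signal in proximal and 2 in distal colon (median -0.03), against 14.5% and 16.2% of all genes. Casp1, the protease that matures interleukins, was 2.80-fold higher in proximal colon (limma adjusted p = 1.14e-11), Pycard, the inflammasome adaptor, 2.65-fold (6.69e-06), and Nlrp6, a sensor of the gut epithelium, 1.96-fold (1.63e-07), each in 9 of 9 rats. Casp12 was 1.63-fold higher (limma adjusted p = 0.000907), and Ripk2, the kinase behind Nod1 and Nod2, 1.15-fold (0.0407). The Ripk2 call was lost on the deposited scaling (adjusted p = 0.108), after median centring (0.164), in the fit blocked by rat (0.0528), without the proximal arrays of rats 3 and 6 (0.0518), without the 3 muscle-rich arrays (0.104), and when rat 1, 3, 4, 5, 6, 7 or 10 was left out (up to 0.110). Nlrx1, a mitochondrial member of the family, was 2.15-fold higher in distal colon (limma adjusted p = 3.12e-05, 9 of 9 rats). Casp4, a caspase that binds endotoxin inside cells, was 1.22-fold higher there (limma adjusted p = 0.0213), but not with the deposited scaling (0.361) or without rat 2 or 5 (up to 0.0573). Nod1 did not pass (difference 0.14, limma adjusted p = 0.315).

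Of 28 cytokines and other targets on the array, 12 were too dim for the filter and 16 were tested. Among these 1 was higher in distal and 3 in proximal colon (median -0.20), a share no larger than the 30.8% of all genes. Saa3, an acute-phase protein, was 34.3-fold higher in proximal colon (limma adjusted p = 6.96e-17), Lcn2, a protein that withholds iron from bacteria, 2.52-fold (0.00483) and Ccl5, a chemokine, 1.45-fold (0.00696). Lcn2 was dim, and its distal mean log2 signal of 5.14 lay below the filter level of 5.54, while its proximal mean was 6.48. Il18, a cytokine that Casp1 matures, was 1.42-fold higher in distal colon (limma adjusted p = 0.00955, 9 of 9 rats), but not with the deposited scaling (0.0976). Tnf and Il1b did not pass, at mean log2 signals of 5.57 to 6.91. With rat as a block Il1b passed as higher in proximal colon (limma adjusted p = 0.0204), as it did without the 3 muscle-rich arrays (0.0387).

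**Figure D4:**
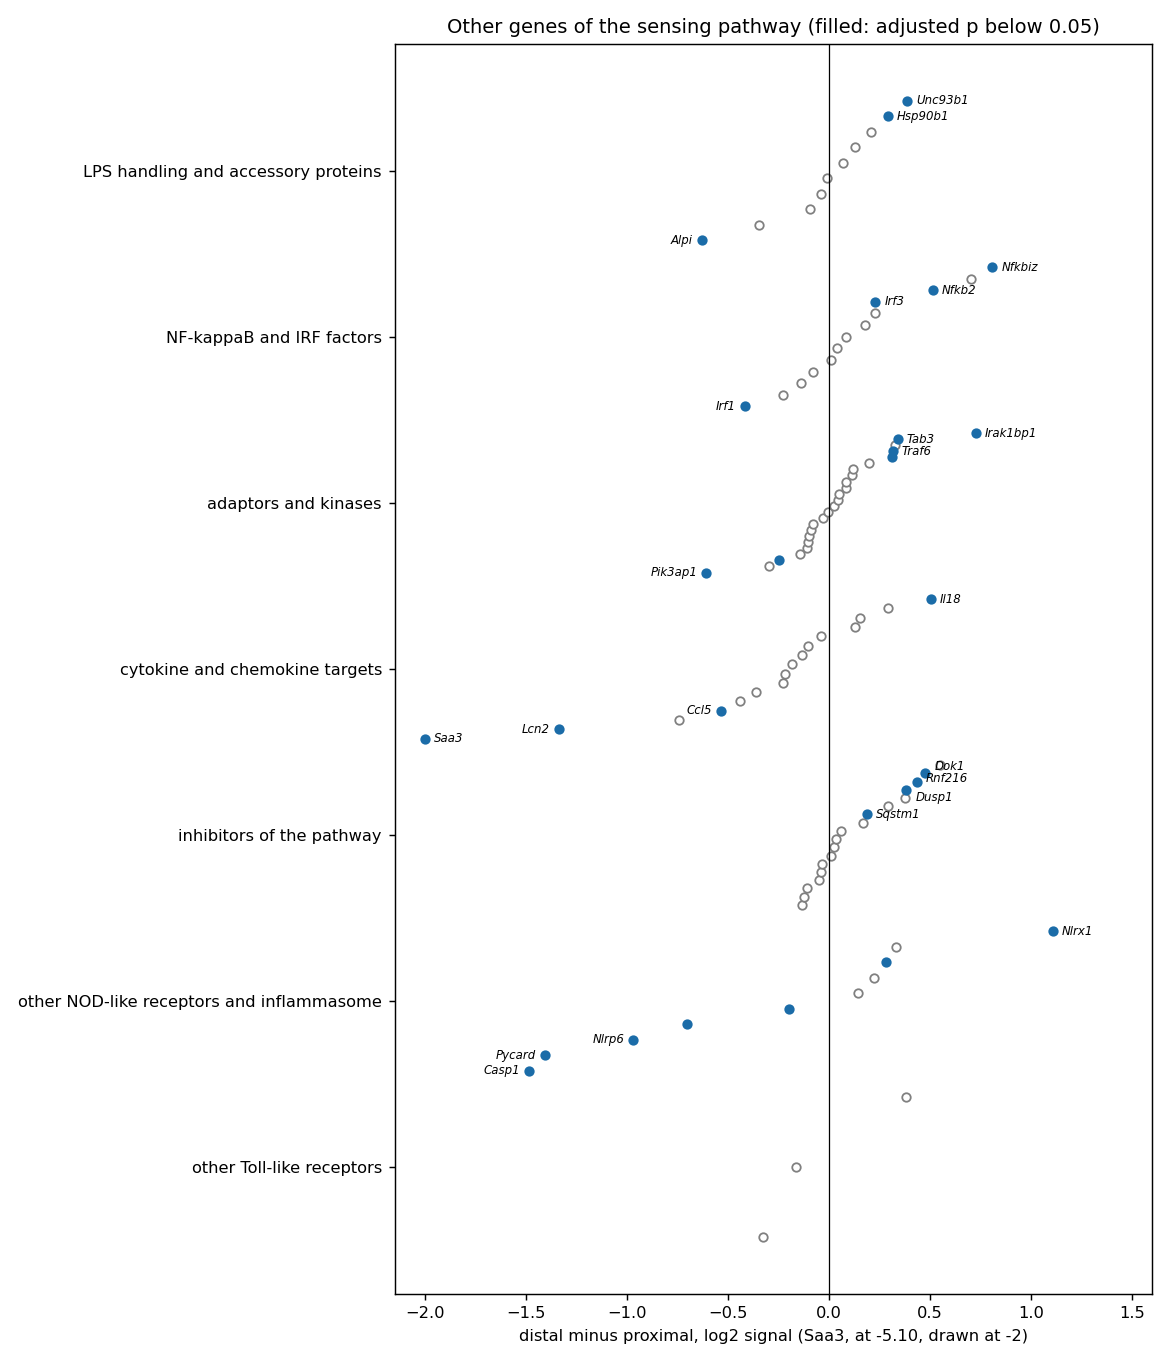
Distal minus proximal log2 signal (x axis) of the tested genes of 7 lists of the sensing pathway (y axis), a circle for each gene, filled where the adjusted p was below 0.05; up to 4 genes of each list with the largest called differences are named, and Saa3, at -5.10, is drawn at the left edge. Casp1 (-1.49), Pycard (-1.41) and Nlrp6 (-0.97) lie toward proximal colon, and Nlrx1 (1.11) and Nfkbiz (0.81) toward distal colon.

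**Figure D5:**
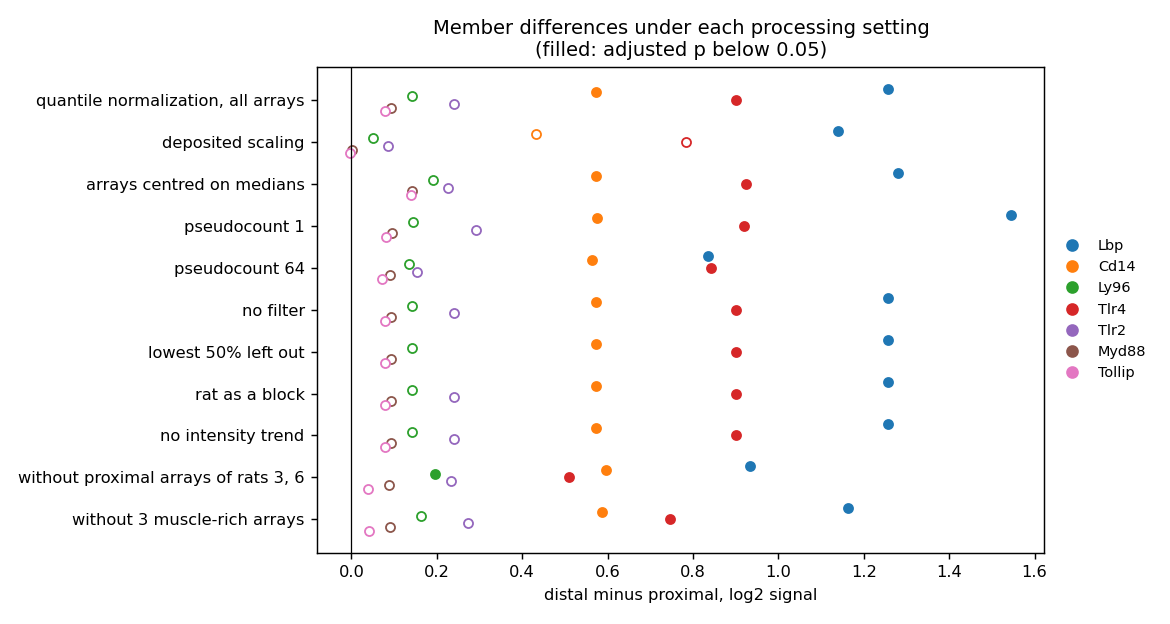
Distal minus proximal log2 signal (x axis) of the 7 genes under 11 processing settings (y axis), filled where the adjusted p was below 0.05. Lbp is filled under every setting drawn, while Cd14 and Tlr4 are open with the deposited scaling (0.43 and 0.78) and Ly96 is filled without the proximal arrays of rats 3 and 6 (0.20).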

How the data were processed

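The authors deposited a linear signal intensity for each probe set. The submitters' processing notes name MAS5, and its version, scaling target and detection calls were not given in the sources used here. Trimmed means (2% at each end) ran from 210.3 to 341.2 over the arrays, so the deposited scaling was not kept as the main setting. From the deposited intensities, log2(value + 16) was quantile normalized over 31042 non-control probe sets, which removes any overall shift between regions. Dropping the dimmest 30% by mean signal kept 21729 for testing. Gene symbols are those of the platform's annotation (20826 probe sets with 1 symbol, 436 with several, 9780 unnamed here), and a gene was represented by its brightest probe set.

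The regional difference (distal minus proximal) came from limma 3.58.1 in R 4.3.3 (lmFit, eBayes with an intensity trend, two-sided, Benjamini-Hochberg over all probe sets tested; 18 arrays, no block). The script was tested on simulated data. The simulated arrays were independent, with no rat effect, outlying arrays or uneven scaling, so that test does not cover these features. Arrays that share a number share a rat by their labels, and their deviations from region means correlated with r of 0.000945 to 0.569 (median 0.226, against -0.03 between different rats). The main fit did not use this pairing, so its SE, intervals and p are those of an unpaired comparison. Relations over rats used exact permutation of pairings (Python 3.11.15, scipy 1.17.1). Precision is limited by the 18 arrays. Members and lists were chosen with earlier results of these data known. The text names all members, up to 4 called genes of each list and those of the rarer direction, and the 3 genes most correlated with each member, symbols starting with LOC, RGD, MGC, Rn, AABR or AC0 passed over. Genes named without passing were chosen after their values were seen. Values of no sample were in 0 columns. Alternatives were the deposited scaling, median centring, other pseudocounts and filters, the rat as a block, no trend, the mean of probe sets, and leaving out rats or arrays. The series describes 2 allocation groups that the labels do not tie to rats, so they were not compared. Rat 9 was not analysed here.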

Additional observations from a re-analysis of the deposited data

Results flagged for a closer look

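In 4 of 49 sets of 9 arrays or differences examined, 1 array lay far from the other 8, by Dixon's criterion at the 95% level, which chance alone meets in about 1 of 20 sets. Distal Tlr4 was lowest in rat 3, at a log2 signal of 9.72, with the next lowest at 10.28. Without rat 3 the regional difference of Tlr4 was 0.77 (limma adjusted p = 0.00570). Distal Tlr2 was highest in rat 10, at 7.04, with the next highest at 6.55. Without rat 10 Tlr2 still did not pass. In the proximal array of rat 3 the smooth muscle mean was 12.09 (next highest 8.72) and the epithelial mean was 12.61 (next lowest 12.79).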

How the results depend on the processing

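Lbp passed under all 19 alternatives fitted by probe set, with differences of 0.83 (pseudocount 64) to 1.55 (pseudocount 1). Cd14 (0.43 to 0.62) and Tlr4 (0.51 to 0.97) passed under 18 of 19, the exception being the deposited scaling. With the mean of probe sets, a further alternative, these 3 genes passed as well. The deposited scaling gave 451 genes with more signal in distal and 1552 with more in proximal colon, against 1853 and 1657 after quantile normalization. Under it the median of all genes lay at -0.10, and 1 member was higher in distal colon in place of 3. The cause was not tested. The members higher in distal colon numbered 4 without the proximal arrays of rats 3 and 6, with Ly96 added, for which these rats were the exceptions. Leaving out each rat in turn gave 3 members higher in distal and 0 in proximal colon each time, with 1585 to 1877 genes higher in distal and 1428 to 1774 in proximal colon. Rat as a replicate block gave 2219 and 1980 genes, and changed no member's call (Tlr4 adjusted p = 0.00126, Cd14 0.000152, Lbp 0.00215). It changed calls in the lists. Among genes that did not pass in the main fit, Atf3 (limma adjusted p = 0.00976) and Ikbkb (0.0180) then passed toward distal and Peli2 (0.0168) toward proximal colon. Tollip turned sign with the deposited scaling (-0.0023 for 1399052_at and -0.035 for 1378572_at) and without the proximal arrays of rats 3 and 6 (-0.026 for 1378572_at), and the mean of its probe sets gave -0.0084. The proximal to distal r turned sign without the 2 rats farthest from the median for Myd88 (-0.15) and Lbp (0.46). Of 280 counts of pathway lists, 243 stayed within 1.5 times, 5 rose and 32 fell further. Tlr2, at log2 signals of 6.04 to 7.04, and proximal Lbp, at 4.83 to 7.14, are limited by their low signal.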
